A study of Mus musculus with 12 samples.

Results

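The respiratory chain genes were taken here as every protein-coding mouse gene of GENCODE release M21 whose symbol names a subunit or assembly factor of complexes I to V or cytochrome c (Nduf, Sdh, Uqcr, Cyc1, Cycs, Cox4 to Cox8 and Atp5 symbols, and the mt-Nd, mt-Co, mt-Cytb and mt-Atp symbols). The rule used no measured value. It found 109 of the 35907 genes with a counted transcript, of which 13 are encoded by the mitochondrial genome and 96 by the nucleus. Complex I held 7 mitochondrial and 38 nuclear genes and 8 nuclear assembly factors, complex II 4 nuclear genes, complex III 1 mitochondrial and 9 nuclear, complex IV 3 and 18, complex V 2 and 18, and cytochrome c was Cycs alone. Ndufa4 and Ndufa4l2 carry complex I names and were counted there, although NDUFA4 is now placed in complex IV.

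RNA was sequenced from donor T cells of C57BL/6 mice in 4 groups of 3 libraries. TCF-1 cKO Post-Tx and WT Post-Tx were donor T cells sorted by the H2Kb marker from the spleens of lethally irradiated BALB/c recipients on day 7 after allogeneic transplantation. TCF-1 cKO Pre-Tx and WT Pre-Tx were CD4 T cells sorted from donor spleens and never transplanted. TCF-1 cKO donors carried floxed Tcf7 alleles and CD4-Cre, which is active from the double-positive thymocyte stage, so the gene is targeted in both CD4 and CD8 T cells. WT donors were C57BL/6 mice with intact Tcf7. The labels call all 12 libraries CD4 T cells, while the deposited design text also speaks of CD8 T cells. The titles call the libraries biological replicates without saying which mice they came from, so a p-value measures the spread between these libraries.

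The respiratory chain passes electrons from NADH (complex I) and succinate (complex II) through complex III and cytochrome c to oxygen at complex IV, and complex V uses the resulting proton gradient to make ATP. Complex II is wholly nuclear-encoded, and the other complexes combine subunits made from the mitochondrial genome with subunits imported from the cytosol. Resting T cells draw much of their ATP from this pathway, and activated T cells expand their mitochondria while they raise glycolysis.

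The libraries held between 17103415 and 49486745 estimated counts. The 3 WT Post-Tx libraries (49486745, 27109156 and 40440145) were the deepest, and the deepest other library held 25756488. Tcf7 counts, summed over all annotated transcripts of the gene, did not separate the genotypes before transplantation. They were 148 to 193 CPM (counts scaled to library size) in TCF-1 cKO Pre-Tx and 124 to 207 in WT Pre-Tx. At day 7 they were lower without overlap in TCF-1 cKO (91.6 to 113 CPM in TCF-1 cKO Post-Tx, against 155 to 182 in WT Post-Tx). Such a sum does not read a floxed exon. All 6 Pre-Tx libraries held B cell transcripts at high level against their CD4 T cell label. The summed 8 B cell markers took 45.4 to 94.8 CPM in TCF-1 cKO Post-Tx, 41.1 to 78.5 in WT Post-Tx, 8459 to 8834 in TCF-1 cKO Pre-Tx and 7270.2 to 8276 in WT Pre-Tx. The summed 7 T cell markers, Cd4 among them, took 3999.7 to 4442 CPM in TCF-1 cKO Post-Tx, 5491 to 6428 in WT Post-Tx, 870.0 to 1036 in TCF-1 cKO Pre-Tx and 1881 to 2126 in WT Pre-Tx. The groups therefore did not overlap in T cell markers in any comparison reported here, and the part of cell makeup in the results was not tested. In bulk RNA, fewer cells of a type and less RNA per cell cannot be told apart.

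Part of the mitochondrial genome is also present in chromosome 1 as a near-identical pseudogene block, and reads from the copy cannot be separated from the mitochondrial gene. Of the 31-base words of each mitochondrial gene, the copy shared 99.9% for mt-Co3, 99.5% for mt-Co2, 99.5% for mt-Atp6, 98.1% for mt-Nd3, 62.8% for mt-Nd4, 29.6% for mt-Co1 and 7.47% for mt-Atp8, and none for mt-Cytb, mt-Nd1, mt-Nd2, mt-Nd4l, mt-Nd5 and mt-Nd6. The sequences below show how close the copies are, with the first 60 bases of mt-Nd3 beside its pseudogene Gm28438 and positions 1054 to 1113 of mt-Co1 beside Gm29216, capitals marking the bases that differ (GENCODE M21 transcripts, GRCm38).
mt-Nd3: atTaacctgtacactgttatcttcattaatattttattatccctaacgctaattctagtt
Gm28438: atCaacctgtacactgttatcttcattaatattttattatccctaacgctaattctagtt
mt-Co1: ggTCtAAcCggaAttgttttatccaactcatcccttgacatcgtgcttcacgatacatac
Gm29216: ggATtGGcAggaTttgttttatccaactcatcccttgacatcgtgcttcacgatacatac
Counted from the first base of the mitochondrial gene, mt-Nd3 and its copy differed by T3C alone over 345 aligned bases. Over 492 aligned bases, mt-Co1 and its copy differed by T1056A, C1057T, A1059G, A1060G, C1062A and A1066T. The aligned stretches of mt-Co2 (681 bases), mt-Atp6 (678), mt-Co3 (783) and mt-Nd4 (876) had 0 mismatches. The values of these genes are therefore uncertain, while mt-Cytb and mt-Nd1, both abundant, share no such word with the block. Adding the pseudogene counts to the mitochondrial genes left the ratio of group means close, at 1.5 in place of 1.51 for TCF-1 cKO over WT before transplantation.

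Per unit length, the most abundant respiratory chain transcripts in these libraries were mitochondrial, led by mt-Co3. Other mitochondrial messages lay within the range of the nuclear members. Their means over the 12 libraries were 14041 TPM, which scales each count by transcript length, for mt-Co3, 4281 for mt-Co2, 3815 for mt-Co1, 3488 for mt-Atp6, 1897 for mt-Cytb, 1085 for mt-Nd1 and 1013 for mt-Atp8, and the other 6 lay between 197 TPM (mt-Nd6) and 541 TPM (mt-Nd4). The median nuclear member averaged 218 TPM. The most abundant nuclear member of each complex was Ndufa1 in complex I (613 TPM), Sdhb in complex II (387), Uqcr11 in complex III (802), Cox4i1 in complex IV (1289) and Atp5b, the catalytic beta subunit, in complex V (884). Cycs, the soluble electron carrier, averaged 26.3 TPM. Within complex II, Sdhb (iron-sulfur subunit) stood at 387 TPM, Sdhd (membrane anchor) at 196, Sdha (flavoprotein) at 137 and Sdhc (membrane anchor) at 43.1.

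Of the paralogs with restricted tissue expression, the ubiquitous forms carried nearly all of the signal. Cox4i1 averaged 1289 TPM beside 1.05 TPM for the lung form Cox4i2, Cox6a1 760 TPM beside 6.93 TPM for the heart and muscle form Cox6a2, and Cox6b1 737 TPM beside 3.59 TPM for the testis form Cox6b2. Cox7a2 averaged 323 TPM beside 3.27 TPM for the muscle form Cox7a1, Cox8a 1125 TPM beside 0.264 TPM for the muscle form Cox8b and 1.02 TPM for the testis form Cox8c, and Ndufa4 381 TPM beside 0.207 TPM for Ndufa4l2. Cox8b, Ndufa4l2, Cox7b2 and a second Atp5o identifier, the last at 0 counts in all 12 libraries, passed no filter on low counts and were not tested.

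The 13 mitochondrial genes summed, in CPM, to 13163, 10774 and 26217 in TCF-1 cKO Post-Tx, 7829.9, 22876 and 22725 in WT Post-Tx, 27952, 25898 and 19330.5 in TCF-1 cKO Pre-Tx and 17907, 22990.5 and 7619 in WT Pre-Tx. Within a group, the highest library exceeded the lowest by 1.45 to 3.02 times. In these sums, which are CPM without scaling, the groups overlapped in all 4 comparisons. Scaled by TMM, the edgeR factors used for single genes, all 13 had negative log2 fold changes over the transplant in TCF-1 cKO. Their median was −0.83, beside 0.36 over all genes, and mt-Co1, mt-Co3 and mt-Nd3 did not overlap. In WT 10 were positive and 3 negative (median 0.70, beside −0.41). The 96 nuclear genes were far steadier, with a highest over lowest ratio of 1.09 to 1.17. They summed, in CPM, to 17143, 15738 and 16393 in TCF-1 cKO Post-Tx, 17900.3, 16092 and 17844 in WT Post-Tx, 10771, 12648 and 12624 in TCF-1 cKO Pre-Tx and 13409.6, 14004 and 14960.4 in WT Pre-Tx. All TCF-1 cKO Pre-Tx libraries lay below all WT Pre-Tx libraries, with a ratio of means of 0.85, and every Post-Tx library lay above every Pre-Tx library of its genotype, with a ratio of 1.37 in TCF-1 cKO and 1.22 in WT. By exact permutation (two-sided), each of these 3 differences had p = 0.1, the lowest value within reach of 3 libraries against 3, and 0.255 after Benjamini-Hochberg adjustment over 84 such tests. The sums here and by complex below are not TMM-scaled. With TMM, the median log2 fold change of the nuclear genes over the transplant was 0.07 in TCF-1 cKO (53 positive, 39 negative). In WT it was 0.22 (66 positive, 26 negative). The size of these rises and their order between the genotypes thus depend on the scaling and the measure.

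**Figure D1:**
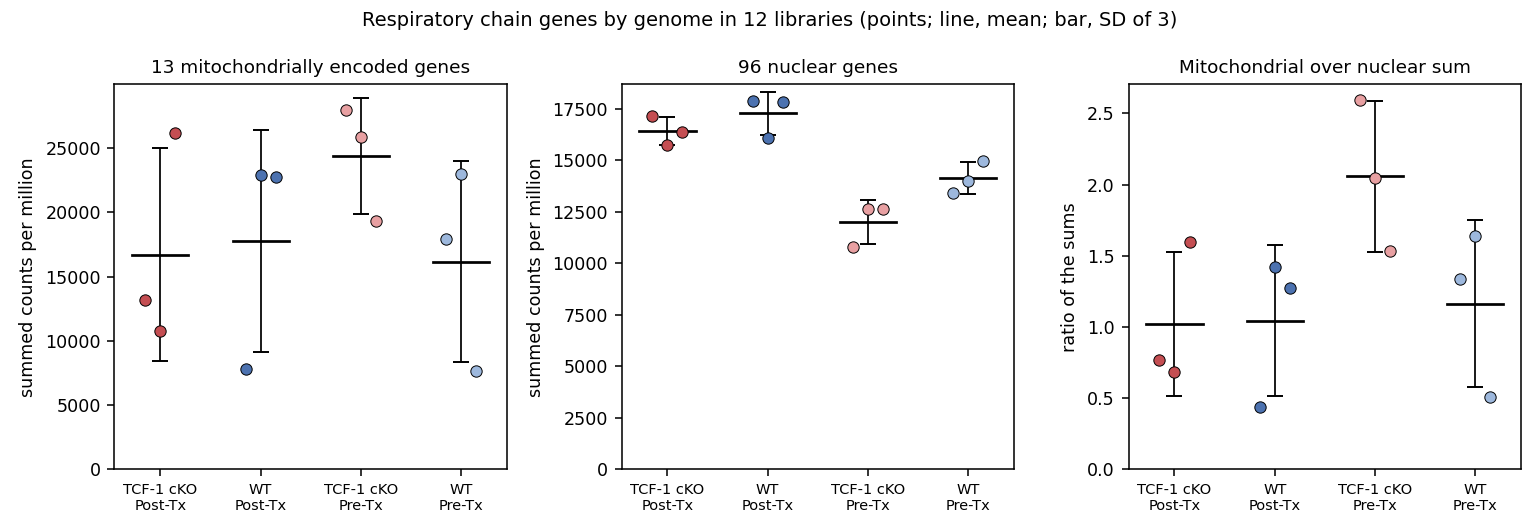
Summed CPM, without TMM scaling, of the 13 mitochondrial genes (left), of the 96 nuclear genes (middle) and the ratio of these sums (right) in each of the 12 libraries. Points are libraries, horizontal lines group means and bars the SD (n = 3); the mitochondrial sums of all groups overlap, while the nuclear sums lie between 10771 and 14960.4 CPM before and between 15738 and 17900.3 CPM after transplantation.

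The balance between the genomes followed the mitochondrial sum. The mitochondrial over nuclear ratio was 0.768, 0.685 and 1.60 in TCF-1 cKO Post-Tx, 0.437, 1.42 and 1.27 in WT Post-Tx, 2.60, 2.05 and 1.53 in TCF-1 cKO Pre-Tx and 1.34, 1.64 and 0.509 in WT Pre-Tx. It overlapped between the groups in every comparison, and its p ranged from 0.2 to 1.0 in the exact permutation test. By complex, the nuclear sums of complex IV (ratio of means 0.68 for TCF-1 cKO over WT), complex III (0.74) and complex I (0.78) did not overlap before transplantation, whereas complex II (1.12) and complex V (1.01) did. After transplantation only the nuclear sums of complex II (0.94) and complex III (0.86) stood apart between the genotypes.

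Before transplantation, 4 of the 13 mitochondrial genes and 4 of the 89 nuclear genes tested were higher in TCF-1 cKO than in WT, and 10 nuclear genes were lower. That is 18 of 102 members tested, beside 14.2% of the 17021 genes tested in this comparison (8.52% higher and 5.65% lower), by the edgeR quasi-likelihood test at a Benjamini-Hochberg adjusted p under 0.05. The median log2 fold change was 0.87 over the mitochondrial genes, −0.27 over the nuclear genes and −0.11 over all genes tested. The gap between the mitochondrial and nuclear medians was 1.14 on the log2 scale. Under the other normalizations, filters and tests tried it was 1.10 to 1.17. A change of scaling moves both medians nearly alike, so this range does not measure the spread between libraries. Without single libraries, the log2 ratio of the mitochondrial share of counts ran from 0.25 to 0.93. The sum of 3 NK cell markers, all called higher, was 165 to 248 CPM in TCF-1 cKO Pre-Tx, against 46.9 to 81.7 CPM in WT Pre-Tx, and that of 2 CD8 T cell markers 301 to 321 CPM in TCF-1 cKO Pre-Tx, against 386 to 491 CPM in WT Pre-Tx. Their part in the results was not tested.

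mt-Cytb, the only mitochondrially encoded subunit of complex III (chrM:14145-15288, plus strand), showed the clearest mitochondrial difference. Its normalized counts were 2636, 2207 and 1699 CPM in TCF-1 cKO Pre-Tx, against 943, 1147 and 485 CPM in WT Pre-Tx. All TCF-1 cKO libraries were above all WT libraries, with a log2 fold change of 1.34 (SE 0.29, adjusted p = 0.0163 by edgeR). The complex I subunit mt-Nd2 had 476, 374 and 231 CPM in TCF-1 cKO Pre-Tx, against 195, 210.0 and 96 CPM in WT Pre-Tx (log2 fold change 1.11, SE 0.33, adjusted p = 0.0438 by edgeR). mt-Nd4 (log2 fold change 1.01) and mt-Co2 (1.15), both with copies in the chromosome 1 block, also rose without overlap. The other 9 did not pass the test. Among them mt-Co1 differed by 1.15 (adjusted p = 0.0593 by edgeR), mt-Co3 by 0.08, and mt-Nd3 was the only mitochondrial gene with a negative value, −0.66.

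The makeup of the mitochondrial messages differed as well. mt-Co3 gave 28.9%, 38.5% and 46.5% of the mitochondrial counts in TCF-1 cKO Pre-Tx, against 49.7%, 53.6% and 53.0% in WT Pre-Tx. The shares did not overlap (p = 0.1 in the exact permutation test, the smallest possible). In the Post-Tx groups they did, at 31.8%, 31.7% and 34.8% in TCF-1 cKO Post-Tx and 24.9%, 30.9% and 33.5% in WT Post-Tx.

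**Figure D2:**
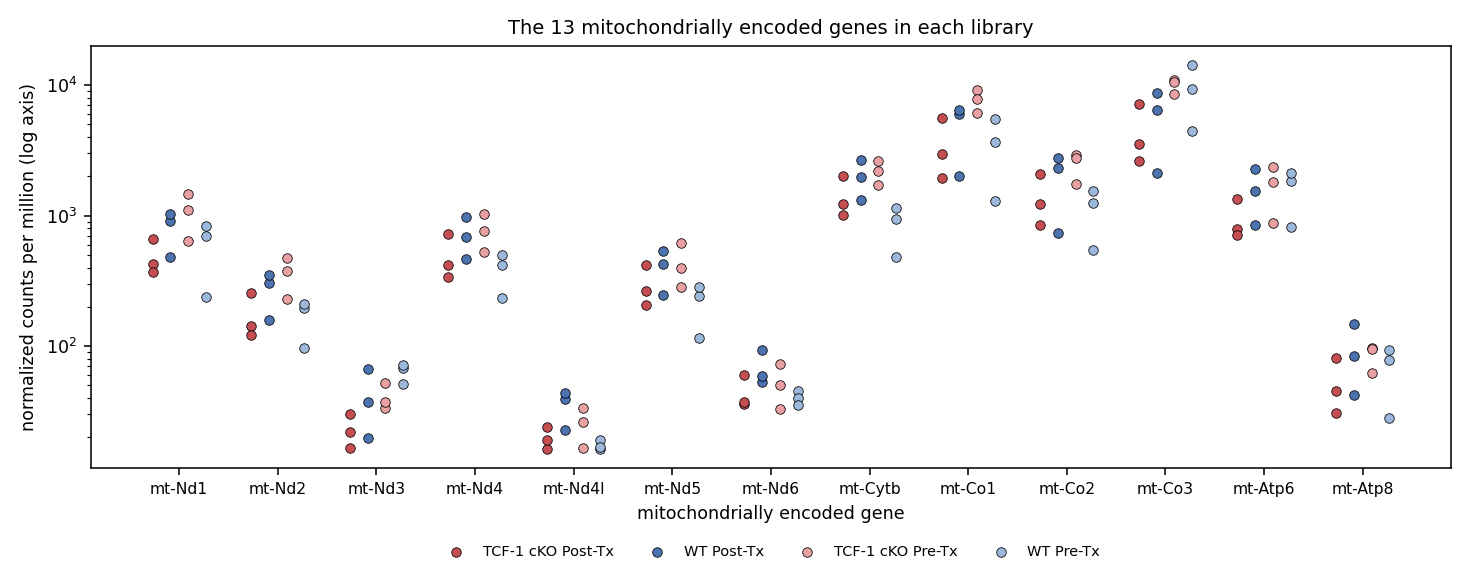
Normalized CPM (log axis) of each of the 13 mitochondrial genes in the 12 libraries, by group. Each point is a library; for mt-Cytb the 3 WT Pre-Tx libraries (485 to 1147 CPM) lie below the 3 TCF-1 cKO Pre-Tx libraries (1699 to 2636 CPM).

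Among the nuclear genes, complex III held members that moved in opposite directions in the same libraries. The core subunit gene Uqcrc1 (chr9:108936633-108949623) had 394, 503 and 574 CPM in TCF-1 cKO Pre-Tx, against 725, 1067 and 1042 CPM in WT Pre-Tx, a log2 fold change of −1.01 (SE 0.22, adjusted p = 0.0179 by edgeR). The small subunit gene Uqcrq had 80.5, 128 and 129 CPM in TCF-1 cKO Pre-Tx, against 189, 190.4 and 279.9 CPM in WT Pre-Tx, a log2 fold change of −1.03. Uqcr11 fell by 0.84 on the log2 scale. In contrast, the second core subunit gene Uqcrc2 had 172, 198 and 224 CPM in TCF-1 cKO Pre-Tx, against 119, 141 and 96.5 CPM in WT Pre-Tx, a log2 fold change of 0.70 (adjusted p = 0.0488 by edgeR). The ubiquinone-binding subunit gene Uqcrb had 65.4, 79.4 and 86.3 CPM in TCF-1 cKO Pre-Tx, against 41.1, 43.6 and 29.5 CPM in WT Pre-Tx (log2 fold change 0.98). The products of these genes assemble into a single enzyme, and none of the 5 overlapped between the genotypes.

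In complex I, Ndufs1 rose while 6 subunit genes fell. Ndufs1, which encodes the large iron-sulfur subunit at the NADH-oxidizing end (chr1:63143596-63176833, minus strand), had 84.6, 76.1 and 114 CPM in TCF-1 cKO Pre-Tx, against 21.4, 48.7 and 6.53 CPM in WT Pre-Tx. Its log2 fold change was 1.83 (SE 0.52, adjusted p = 0.0387 by edgeR), and the WT libraries alone spanned more than the gap between the groups. The supernumerary subunit genes Ndufa13 (log2 fold change −0.97), Ndufb11 (−0.91) and Ndufb8 (−0.86) and the accessory gene Ndufs6 (−0.97) and the core gene Ndufs7 (−0.71) were lower in every TCF-1 cKO Pre-Tx library than in any WT Pre-Tx library. Ndufa13, for instance, had 128, 155 and 164 CPM in TCF-1 cKO Pre-Tx, against 251, 260.1 and 329 CPM in WT Pre-Tx. Ndufb2 fell most (−1.67) and is described with its transcripts further on.

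Complexes IV and V each had 1 nuclear call, and complex II had 0 of 4 by edgeR, of which 2 had an unadjusted p under 0.05. Cox4i1, the gene for the first-assembled nuclear subunit of cytochrome c oxidase, had 374, 548 and 585 CPM in TCF-1 cKO Pre-Tx, against 845, 920.1 and 1100.3 CPM in WT Pre-Tx (log2 fold change −0.99, SE 0.22, adjusted p = 0.0183 by edgeR). Atp5f1, the peripheral stalk b subunit gene of ATP synthase, had 291, 244 and 207 CPM in TCF-1 cKO Pre-Tx, against 129, 143 and 38.2 CPM in WT Pre-Tx (log2 fold change 1.26, adjusted p = 0.0464 by edgeR). Most Atp5f1 counts went to Atp5f1-203, annotated as nonsense-mediated decay. Before scaling, the coding Atp5f1-201 took 95.5, 72.4 and 46.5 CPM in TCF-1 cKO Pre-Tx, against 29.4, 34.6 and 11.1 CPM in WT Pre-Tx. Sdha had 511, 523 and 515 CPM in TCF-1 cKO Pre-Tx, against 262, 424 and 212 CPM in WT Pre-Tx, without overlap, and an adjusted p of 0.0547 by edgeR. Cycs was likewise apart, with 60.9, 55.6 and 47.1 CPM in TCF-1 cKO Pre-Tx, against 30.6, 38.2 and 17.4 CPM in WT Pre-Tx (log2 fold change 0.91, adjusted p = 0.0792 by edgeR). Over all members tested, 19 were higher and 30 lower without overlap, beside 41.2% of all genes tested (21.3% higher and 19.9% lower).

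These counts rested on few libraries. Without TCF-1 cKO Pre-Tx library 1 or WT Pre-Tx library 1 no member passed. Without TCF-1 cKO Pre-Tx library 2 there were 2 calls, without library 3 of that group 6, without WT Pre-Tx library 2 there were 13 and without WT Pre-Tx library 3 there was 1. Upper-quartile scaling, which moved the median of all genes by −0.36, gave 1 higher and 33 lower (33.3%, beside 15.9% of all genes), and a filter at a mean of 10 CPM gave 2 higher and 32 lower (35.1%, beside 23.0%). Calls for Ndufb8, Uqcrc1, Ndufb11, Cox4i1, Ndufa13, Uqcrq and mt-Cytb held under every alternative normalization, filter, test and transcript set tried with all 6 libraries at the same call rule.

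**Figure D3:**
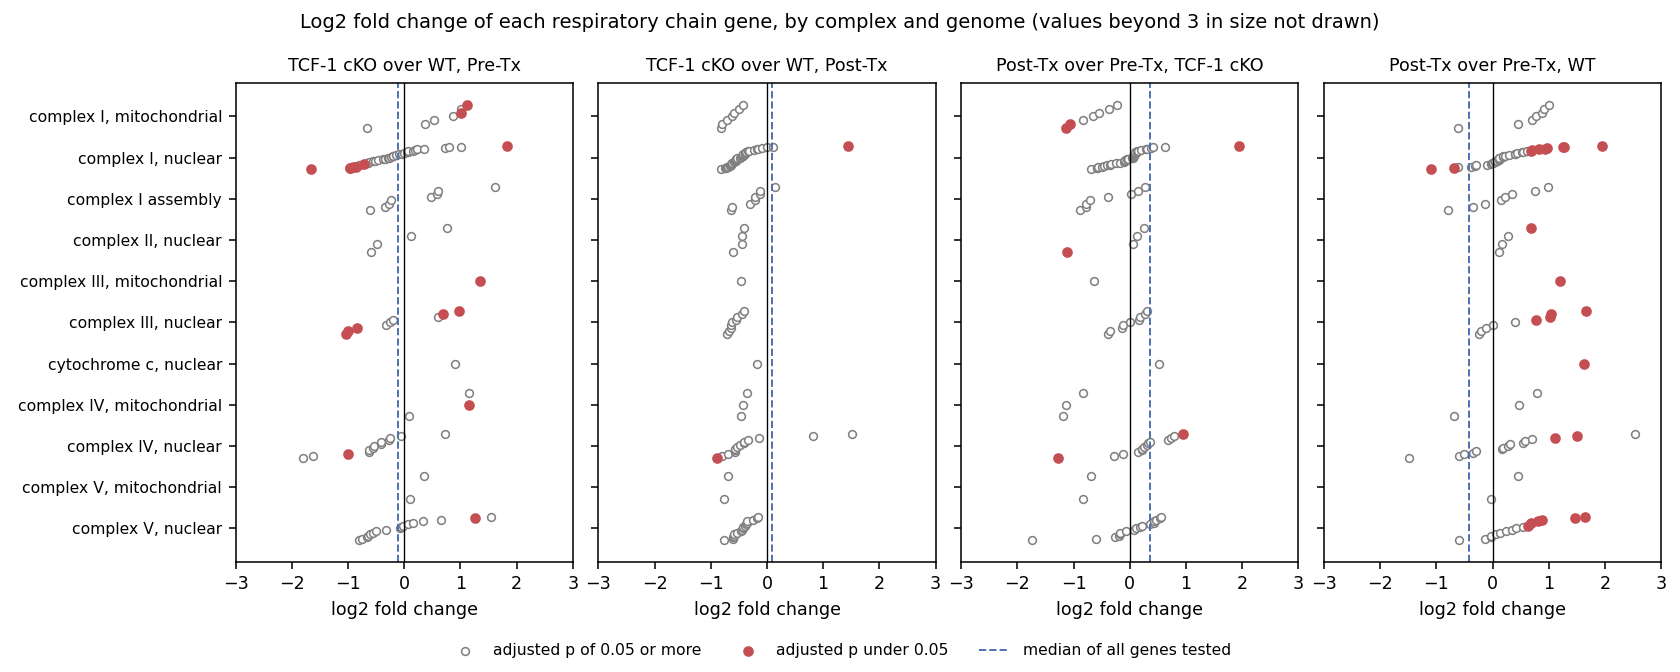
Log2 fold change of each respiratory chain gene in 4 comparisons, arranged by complex and genome. Red points passed at an adjusted p under 0.05, open points did not, the dashed line is the median of all genes tested (−0.11, 0.09, 0.36 and −0.41 in the order of the panels), and values beyond 3 in size are not drawn.

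Fold changes of the nuclear genes before transplantation ran with base composition. Over the 89 nuclear members with a mean of at least 1 CPM, the GC content of the most abundant transcript and the log2 fold change of TCF-1 cKO over WT had a Pearson r of −0.64 and a Spearman rho of −0.68, beside −0.097 and −0.16 over all genes tested. The points share the same 6 libraries, so these values are descriptions with no p. At day 7 rho was −0.56 over the nuclear members, beside −0.28 over all genes, and over the WT transplant −0.52, beside −0.061. Transcript length (log10) also ran with the fold change before transplantation, with an r of 0.40 and a rho of 0.38, beside 0.10 and 0.12 over all genes. The 44 members with a GC content below the median of 51.6% had a median log2 fold change of 0.09, and the 45 above it −0.63. The 4 nuclear genes that rose had transcripts of 42.2% (Uqcrb), 44.4% (Uqcrc2), 45.9% (Atp5f1) and 46.6% (Ndufs1) GC. Of the 10 that fell, all but Ndufb2 were above the median, for example Cox4i1 at 57.6%, Uqcrc1 at 57.5% and Ndufs7 at 60.7%. The most abundant transcript was annotated as a retained intron for Ndufb2 and as nonsense-mediated decay for Atp5f1, so their GC values are not those of a coding transcript.

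The summed low-GC over high-GC ratio of these members set the WT Pre-Tx libraries apart from the others. It was 0.745, 0.742 and 0.847 in TCF-1 cKO Post-Tx, 0.584, 0.764 and 0.737 in WT Post-Tx, 0.781, 0.713 and 0.687 in TCF-1 cKO Pre-Tx and 0.507, 0.502 and 0.396 in WT Pre-Tx. WT Pre-Tx overlapped neither TCF-1 cKO Pre-Tx nor WT Post-Tx (p = 0.1 in each exact permutation test, the smallest possible), and every other pair compared overlapped. The part of base composition and transcript length in the calls was not tested.

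**Figure D4:**
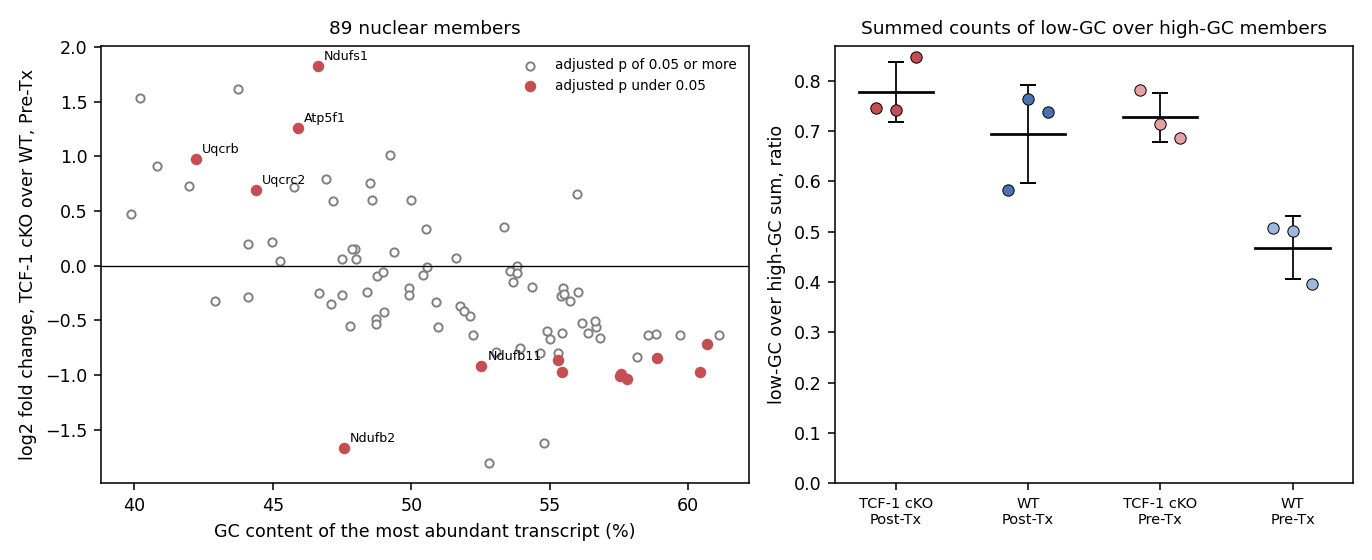
Left, log2 fold change of TCF-1 cKO over WT before transplantation against the GC content (%) of the most abundant transcript, 1 point per nuclear member (n = 89), red where the adjusted p is under 0.05 and named below 55% GC. Right, the ratio of summed CPM of the 44 low-GC over the 45 high-GC members in each library (points), with group mean and SD (n = 3), where the WT Pre-Tx libraries (0.396 to 0.507) lie below all others.

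At day 7, 1 member was higher and 1 lower in TCF-1 cKO than in WT, of 103 tested, beside 6.65% of 19287 genes tested in this comparison (3.52% higher and 3.13% lower). Nearly all other members had small negative values. The median log2 fold change was −0.47 over the members, −0.60 over the mitochondrial genes and −0.46 over the nuclear genes, beside 0.09 over all genes tested. At an unadjusted p under 0.05 there were 45 of 103 members by edgeR, beside 6184 of 19287 genes. Of the members, 2 were higher and 30 lower without overlap between the groups, beside 39.8% of all genes (22.8% higher and 17.0% lower). The size of this gap to all genes depended on which genes were counted in: among genes with a mean of at least 10 CPM, the member median was −0.08 and that of all genes 0.03. All 7 T cell markers were lower and 5 of 6 erythroid markers higher in TCF-1 cKO Post-Tx, and their part was not tested.

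Cox7a2l, which encodes a factor of the supercomplex of complexes III and IV, fell. It had 65.2, 52.6 and 87.3 CPM in TCF-1 cKO Post-Tx, against 121, 112 and 151 CPM in WT Post-Tx, without overlap (log2 fold change −0.89, SE 0.25, adjusted p = 0.0430 by edgeR). The paralog Cox7a2 had 143, 92.9 and 129.5 CPM in TCF-1 cKO Post-Tx, against 160.0, 120.1 and 189.5 CPM in WT Post-Tx, which overlapped. Uqcrc1 had 538, 492 and 441 CPM in TCF-1 cKO Post-Tx, against 986, 652 and 774 CPM in WT Post-Tx, lower in every library but short of the threshold. The 13 mitochondrial genes all had negative values, from −0.35 (mt-Co3) to −0.81 (mt-Nd4l), and 0 passed by edgeR, with 5 at an unadjusted p under 0.05 and 1 called by DESeq2.

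Neither call was stable to the choice of libraries. No member passed without TCF-1 cKO Post-Tx library 2 or without WT Post-Tx library 1, 1 passed without WT Post-Tx library 3, and 22 passed (1 higher, 21 lower) without WT Post-Tx library 2. DESeq2 called 15 members, 14 of them lower (14.6%, beside 19.3% of all genes), and voom with limma 10, of which 9 were lower (9.71%, beside 14.8%).

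Ndufb2, an accessory subunit gene of complex I (chr6:39592574-39603382, plus strand), was the member that rose at day 7. Pooled over the 12 libraries, its counts came mostly from a transcript that does not encode the protein. It had 256, 410.0 and 191 normalized CPM in TCF-1 cKO Post-Tx, against 98.3, 126 and 86.7 CPM in WT Post-Tx (log2 fold change 1.44, SE 0.27, adjusted p = 0.0183 by edgeR). Before transplantation the order was the opposite, with 33.9, 96.1 and 92.6 CPM in TCF-1 cKO Pre-Tx, against 186, 165 and 314 CPM in WT Pre-Tx (log2 fold change −1.67, SE 0.39, adjusted p = 0.0210 by edgeR). Of its counts over the 12 libraries, 67.0% were assigned to transcripts annotated as retained introns, the largest share among members, followed by Cox7b at 25.0%. By library this share was 77.4%, 88.3% and 75.3% in TCF-1 cKO Post-Tx and 17.8%, 58.3% and 11.8% in WT Post-Tx. Before transplantation it was 15.8%, 47.9% and 42.9% in TCF-1 cKO Pre-Tx and 69.8%, 59.6% and 63.7% in WT Pre-Tx. Nearly all of the retained-intron counts were Ndufb2-203, whose second exon (chr6:39598266-39599292) repeats 100 bases of a coding transcript's exon and runs on through 927 bases of intron. The 60 bases across that boundary (chr6:39598336-39598395, plus strand, GRCm38) are shown with the intron in capitals, because this transcript carries most of the gene's counts over the 12 libraries.
Ndufb2-203: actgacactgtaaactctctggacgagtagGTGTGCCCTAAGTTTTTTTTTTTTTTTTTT

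At day 7 the retained-intron transcripts carried the difference, whereas before transplantation the other transcripts differed too. The retained-intron transcripts had 236, 474 and 185 CPM in TCF-1 cKO Post-Tx, against 16.1, 81.0 and 8.90 CPM in WT Post-Tx. Before transplantation they had 5.07, 42.3 and 33.7 CPM in TCF-1 cKO Pre-Tx, against 124, 85.5 and 180.5 CPM in WT Pre-Tx. The other Ndufb2 transcripts averaged 64.3 ± 4.29 CPM in TCF-1 cKO Post-Tx, against 66.4 ± 8.19 CPM in WT Post-Tx (SD, n = 3 each, p = 0.7, two-sided exact permutation test). They averaged 39.3 ± 10.6 CPM in TCF-1 cKO Pre-Tx, against 71.5 ± 27.3 CPM in WT Pre-Tx (SD, n = 3 each, p = 0.1, two-sided exact permutation test), without overlap. With retained-intron transcripts left out of every gene, a choice made after these values were seen, Ndufb2 passed in neither genotype comparison, at −0.35 after transplantation (adjusted p = 0.325 by edgeR) and −1.0 before (adjusted p = 0.084 by edgeR).

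The Ndufb2 retained-intron signal ran with the counts of olfactory receptor genes, a family of odorant receptors of the nasal epithelium. They summed, in CPM, to 4383, 11766 and 5909 in TCF-1 cKO Post-Tx, 1429, 3070.0 and 1065 in WT Post-Tx, 1375, 1511 and 858 in TCF-1 cKO Pre-Tx and 6869.5, 2472 and 4465 in WT Pre-Tx. Across the 12 libraries both values had a Pearson r of 0.93 and a Spearman rho of 0.88. Within the 6 Post-Tx libraries r was 0.97 and within the 6 Pre-Tx libraries 0.78. The libraries fall into 4 groups, so this is a description with no p, and the source of either signal was not tested. Library-wide values differed too. Over all genes, retained introns took 5.04%, 8.01% and 5.78% of counts in TCF-1 cKO Post-Tx, against 3.97%, 3.87% and 3.00% in WT Post-Tx. Before transplantation these shares overlapped. Summed processed pseudogenes were higher in TCF-1 cKO at day 7 (ratio of means 1.72) and lower before (0.57), both without overlap.

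**Figure D5:**
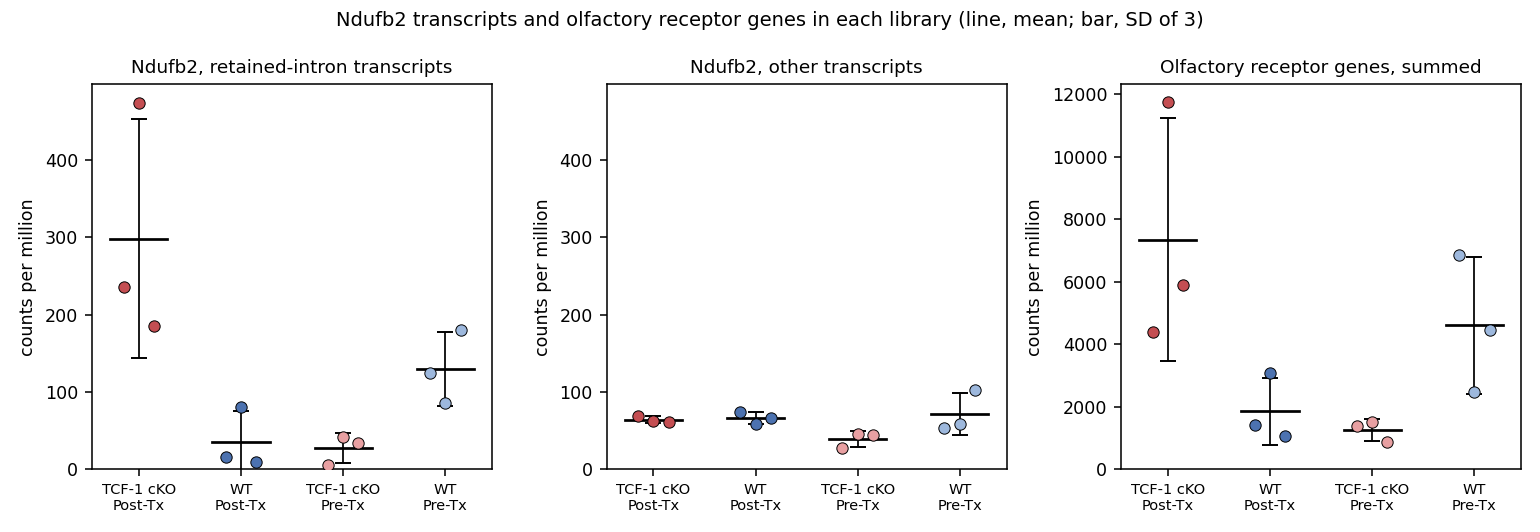
Ndufb2 retained-intron transcripts (left, CPM), the other Ndufb2 transcripts on the same axis (middle, CPM) and summed olfactory receptor genes (right, CPM) in each library, with group mean and SD (n = 3). The group means of the retained-intron and olfactory receptor values are highest in TCF-1 cKO Post-Tx. For olfactory receptors, WT Pre-Tx library 1 (6869.5 CPM) lies above TCF-1 cKO Post-Tx libraries 1 and 3. The other transcripts lie between 27.1 and 103 CPM in all libraries.

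At day 7, TCF-1 cKO cells showed few rises over their Pre-Tx level and WT cells more. In TCF-1 cKO, 3 members were higher and 5 lower at day 7 than before, of 105 tested, beside 26.7% of 21434 genes tested in this comparison (14.2% higher and 12.5% lower). In WT, 23 were higher and 3 lower, beside 22.0% of all genes tested (11.6% higher and 10.4% lower). The member medians were 0.02 in TCF-1 cKO and 0.28 in WT, beside 0.36 in TCF-1 cKO and −0.41 in WT over all genes. Among genes with a mean of at least 10 CPM the TCF-1 cKO medians were 0.35 over the members and −0.04 over all such genes, and the WT medians 0.05 for both, and 20 members were then higher and 2 lower in TCF-1 cKO, against 16 higher and 10 lower in WT, so the ranking of the genotypes by such counts turned with the filter. Upper-quartile scaling gave 20 higher and 3 lower in TCF-1 cKO, against 13 higher and 10 lower in WT. The marker sums of B cells, CD8 T cells and myeloid cells were lower at day 7 without overlap in both genotypes, and all 6 erythroid markers were called lower in both, which cannot be told apart from the transplant. The erythroid sums were 1645 to 5745 CPM in TCF-1 cKO Post-Tx, 709 to 1481 in WT Post-Tx, 4516 to 15162 in TCF-1 cKO Pre-Tx and 10911 to 26122 in WT Pre-Tx. WT Pre-Tx library 3 had the highest erythroid sum and the lowest mitochondrial sum of the 12 libraries. TCF-1 cKO Pre-Tx library 1, however, had the next highest erythroid sum (15162 CPM) and the highest mitochondrial sum (27952 CPM). WT Post-Tx library 1 had the next lowest mitochondrial sum (7829.9 CPM) with an erythroid sum of 760 CPM. A relation between these sums was not tested. The WT Pre-Tx libraries serve both here and in the genotype comparison before transplantation, so the rises of a gene in these comparisons are not independent of each other.

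The rises in WT spanned the complexes, with 8 nuclear genes of complex I, 6 of complex V, 4 of complex III, 2 of complex IV and 1 of complex II. Atp5j, a peripheral stalk subunit gene of ATP synthase, had 267, 217 and 347 CPM in WT Post-Tx, against 84.4, 105 and 77.4 CPM in WT Pre-Tx (log2 fold change 1.64, SE 0.24, adjusted p = 0.000123 by edgeR). Uqcrb had 105, 101 and 156 CPM in WT Post-Tx, against 41.1, 43.6 and 29.5 CPM in WT Pre-Tx (log2 fold change 1.67, SE 0.27, adjusted p = 0.000258 by edgeR). Cycs had 66.4, 89.8 and 111 CPM in WT Post-Tx, against 30.6, 38.2 and 17.4 CPM in WT Pre-Tx, a log2 fold change of 1.63 (SE 0.31). All Post-Tx libraries were above all Pre-Tx libraries for each of the 3 genes. Ndufs1 (log2 fold change 1.94) and Cox7b (1.5) were the other members among the 5 largest rises, and mt-Cytb (1.20) was the only mitochondrial gene that passed. In all, 6 complex V genes rose, from Atp5a1 (0.63) to Atp5j. The 3 falls in WT were Cox6a2, Ndufb2 and Ndufs7. Ndufs7 had 257, 181 and 230 CPM in WT Post-Tx, against 330, 373 and 370 CPM in WT Pre-Tx.

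Cox5a rose at day 7 in both genotypes. This complex IV subunit gene had 282, 195 and 236 CPM in TCF-1 cKO Post-Tx, against 93.4, 133 and 143 CPM in TCF-1 cKO Pre-Tx (log2 fold change 0.95, SE 0.23, adjusted p = 0.00823 by edgeR). In WT it had 261, 216 and 323 CPM in WT Post-Tx, against 133, 115 and 121 CPM in WT Pre-Tx (log2 fold change 1.11, adjusted p = 0.00256 by edgeR). Its difference between the genotypes in this change was −0.16 (adjusted p = 0.722 by edgeR). Cox6a2, the muscle paralog, fell to 0.374, 0.0664 and 0.125 CPM in TCF-1 cKO Post-Tx, against 5.08, 0.975 and 2.82 CPM in TCF-1 cKO Pre-Tx. In WT it fell to 0.0881, 0 and 0.881 CPM in WT Post-Tx, against 8.72, 10.1 and 11.3 CPM in WT Pre-Tx.

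In TCF-1 cKO, Sdha and Cox7a2l fell. Sdha, the flavoprotein of complex II (chr13:74322254-74350280, minus strand), had 228, 258 and 229 CPM in TCF-1 cKO Post-Tx, against 511, 523 and 515 CPM in TCF-1 cKO Pre-Tx (log2 fold change −1.12, SE 0.23, adjusted p = 0.00275 by edgeR). In WT it had 384, 317 and 387 CPM in WT Post-Tx and 262, 424 and 212 CPM in WT Pre-Tx, which overlapped (log2 fold change 0.28, adjusted p = 0.396 by edgeR). Cox7a2l had 65.2, 52.6 and 87.3 CPM in TCF-1 cKO Post-Tx, against 154, 187 and 154 CPM in TCF-1 cKO Pre-Tx (log2 fold change −1.27, SE 0.24, adjusted p = 0.00106 by edgeR). mt-Nd1 (−1.13) and mt-Nd2 (−1.06) were called lower although their libraries overlapped. Sdha, Cox7a2l, Cox5a and both low-count paralogs, Cox4i2 and Cox6a2, kept their calls under every alternative with all libraries. The WT count fell to 11 without WT Post-Tx library 3, and the TCF-1 cKO count ran from 5 (without TCF-1 cKO Post-Tx library 2, TCF-1 cKO Pre-Tx library 1 or TCF-1 cKO Pre-Tx library 2) to 15 (without WT Pre-Tx library 3).

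Tested directly, the change at day 7 was lower in TCF-1 cKO than in WT for 16 members and higher for 2, of 105, beside 28.6% of all genes tested (11.5% lower and 17.1% higher). The 16 included mt-Cytb (difference of log2 fold changes −1.84, SE 0.46, adjusted p = 0.0107 by edgeR) and mt-Nd1, mt-Nd2, mt-Nd4, mt-Nd4l and mt-Nd5 of complex I, so that 6 of the 13 mitochondrial genes passed. The nuclear genes were Ndufs1 and Ndufs4 of complex I, Sdha of complex II, Uqcrb, Uqcrc2 and Uqcrfs1 of complex III, Cox7b of complex IV and Atp5f1, Atp5j and Atp5a1 of complex V. For mt-Cytb, TCF-1 cKO Post-Tx had 1216, 1007 and 1995 CPM and TCF-1 cKO Pre-Tx 2636, 2207 and 1699 CPM, whereas WT Post-Tx had 1314, 1976 and 2644 CPM and WT Pre-Tx 943, 1147 and 485 CPM. Uqcrc2 had, in CPM, 139, 128 and 187 in TCF-1 cKO Post-Tx, 252, 223 and 253 in WT Post-Tx, 172, 198 and 224 in TCF-1 cKO Pre-Tx and 119, 141 and 96.5 in WT Pre-Tx, the lowest group being WT Pre-Tx (difference −1.42, adjusted p = 0.00647 by edgeR).

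The members' median difference was −0.35, beside 0.37 over all genes tested, but 10 members passed under upper-quartile scaling, of which 9 were higher, and 3 under a filter at a mean of 10 CPM. Each of the 18 calls was lost under at least 1 alternative. The gap between the mitochondrial and nuclear medians, −1.24, ranged from −1.29 to −1.22 under the other settings. A change of scaling moves both medians nearly alike, so this range does not measure the spread between libraries. Without TCF-1 cKO Post-Tx library 2 or WT Post-Tx library 3 the count was 5, and without TCF-1 cKO Pre-Tx library 2 or WT Pre-Tx library 1 it was 11. Ndufb2 and Cox4i2 were the members with a higher change in TCF-1 cKO. Cox4i2 rested on 21, 21 and 28 counts in TCF-1 cKO Post-Tx, 4, 13 and 17 in WT Post-Tx, 0, 0 and 1 in TCF-1 cKO Pre-Tx and 6, 2 and 13 in WT Pre-Tx. These counts are not scaled to library depth, which was greatest in WT Post-Tx.

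The promoters of nuclear respiratory genes are known for sites of NRF1, of the ETS factor GABP (NRF2) and of YY1, so these letters were searched on both strands in the RefSeq windows from 250 bases before to 50 bases after the start (GRCm38.p6), which matched 77 of the 96 nuclear members. GCGCATGCG (NRF1), which overlaps its own reverse complement, stood in 11 windows (14.3%), beside 1.81% of all 27025 windows. These NRF1 letters were chosen after a form 1 base longer had been searched and its matches seen. AAGATGGCG (YY1) stood in 7 (9.09%), beside 1.49%, and CCGGAAGT (ETS) in 5 (6.49%), beside 4.0%. A match is a description of the letters and not a bound site. Of the members called before transplantation, Uqcrc1 and Uqcr11 held the NRF1 letters, Ndufs6 and Ndufs7 those of YY1 and Uqcr11 also those of ETS. All 4 fell, beside 4 higher and 10 lower among all nuclear calls. Carriers that were not called went both ways without overlap. For example, Cycs (NRF1) and Ndufs4 (YY1) were higher in TCF-1 cKO Pre-Tx, and Ndufa11 (NRF1) and Atp5j2 (YY1) lower. A link between letters and direction was not tested. The windows of Uqcrc1, Ndufs7 and Uqcr11 are shown because among the members that fell they carry each motif, given in capitals, with overlapping matches on both strands merged.
Uqcrc1 (chr9:108936398-108936697, plus strand): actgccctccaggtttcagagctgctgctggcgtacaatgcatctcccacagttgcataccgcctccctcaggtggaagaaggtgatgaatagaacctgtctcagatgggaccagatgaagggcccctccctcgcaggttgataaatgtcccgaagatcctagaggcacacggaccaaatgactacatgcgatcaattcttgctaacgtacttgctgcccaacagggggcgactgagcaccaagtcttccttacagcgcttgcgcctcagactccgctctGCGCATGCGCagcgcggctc
Ndufs7 (chr10:80249199-80249498, plus strand): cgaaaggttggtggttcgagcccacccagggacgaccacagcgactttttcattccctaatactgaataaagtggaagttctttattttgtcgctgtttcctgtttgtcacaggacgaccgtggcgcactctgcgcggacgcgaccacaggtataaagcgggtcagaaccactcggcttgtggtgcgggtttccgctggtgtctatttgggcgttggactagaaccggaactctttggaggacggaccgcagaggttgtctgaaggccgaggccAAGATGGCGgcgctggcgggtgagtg
Uqcr11 (chr10:80406772-80407071, minus strand): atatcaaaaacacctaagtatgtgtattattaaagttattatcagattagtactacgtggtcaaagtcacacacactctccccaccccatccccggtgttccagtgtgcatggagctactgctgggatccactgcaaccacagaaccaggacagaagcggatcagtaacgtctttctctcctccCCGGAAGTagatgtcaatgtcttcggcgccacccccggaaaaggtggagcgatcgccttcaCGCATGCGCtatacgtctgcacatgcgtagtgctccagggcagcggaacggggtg

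Among genes that serve the chain from outside it, 5 of 17 genes of the citric acid cycle and pyruvate dehydrogenase were higher and 0 lower in TCF-1 cKO than in WT before transplantation. The succinyl-CoA ligase subunit gene Sucla2 (log2 fold change 2.001, adjusted p = 0.0105 by edgeR), the dihydrolipoamide dehydrogenase gene Dld (1.75) and the isocitrate dehydrogenase gene Idh3a (1.20) were among them. The median of the list was 0.45. The 29 genes of mitochondrial DNA upkeep, transcription and RNA processing had 3 higher and 0 lower, of which Lrpprc, a stabilizer of mitochondrial messages, had a log2 fold change of 2.02 and Trmt10c, a subunit of mitochondrial RNase P, 1.83. Of the 12 nuclear regulators, 3 were higher, including Gabpa, the DNA-binding subunit of GABP (log2 fold change 1.84, adjusted p = 0.0313 by edgeR). Mitochondrial ribosomal protein genes had 2 higher and 1 lower of 78, and 41 assembly factors outside the symbol rule had 2 higher and 1 lower. All of these stand beside the 14.2% over all genes. They used TMM scaling, and upper-quartile factors moved the median of all genes by −0.36 in this comparison. At day 7, 0 citric acid cycle genes passed between the genotypes by edgeR, with 6 at an unadjusted p under 0.05, and of the regulators only Myc passed (−0.89), of the 29 genes of mitochondrial DNA upkeep only Elac2 (−0.99).

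Over the transplant, Gabpa was higher at day 7 in WT (log2 fold change 2.48, adjusted p = 0.000305 by edgeR), as were Idh3a (2.07), Sucla2 (2.19), the copper chaperone gene Cox17 (1.80) and the adenine nucleotide carrier gene Slc25a4 (1.19), while Idh2 fell in both genotypes (−1.41 in TCF-1 cKO and −1.39 in WT). In TCF-1 cKO, 2 of 78 mitochondrial ribosomal protein genes were higher and 6 lower, against 14 higher and 2 lower in WT, which is 10.3% called in TCF-1 cKO beside 26.7% of all genes and 20.5% in WT beside 22.0%. The 29 genes of mitochondrial DNA upkeep had 0 higher and 6 lower in TCF-1 cKO, against 2 higher and 1 lower in WT. In TCF-1 cKO, the mitochondrial DNA polymerase gene Polg fell by 1.33 on the log2 scale, and 4 of 6 antioxidant genes were lower, among them the thioredoxin reductase gene Txnrd2 (−1.24), beside 12.5% of all genes lower. In WT 1 of the 6 was lower. The test of the difference passed for 8 of the 17 citric acid cycle genes and 7 of the 29 genes of mitochondrial DNA upkeep, all with a lower change in TCF-1 cKO, which is 47.1% and 24.1% of these lists beside 28.6% of all genes called and 11.5% called lower. It passed for 6 regulators lower and 1 higher (Ppargc1a). All of these list counts used TMM scaling, and counts under other scalings are not given here. Upper-quartile factors moved the median of all genes by 0.37 in TCF-1 cKO, −0.29 in WT and 0.66 in the interaction. The medians of the mitochondrial ribosomal list were −0.22, 0.30 and −0.49 in the same order, so such contrasts depend on the scaling.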

How the data were processed

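Libraries were made with a SMART-Seq HT kit and Nextera XT and sequenced paired-end. The authors quantified transcripts with kallisto 0.46.2 and deposited estimated counts and TPM per transcript for each library. The labels name build mm9, and the annotation release was not given in the sources used here. Here 116428 of 117497 transcripts were matched to GENCODE M21 (GRCm38, whose coordinates are printed) and summed to 35907 genes. Unmatched transcripts took 0.282% to 0.386% of the counts.

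Estimated counts were rounded and tested with edgeR 4.0.16 (R 4.3.3) by the quasi-likelihood test, with TMM scaling and filterByExpr, within each stage for genotype, and over all 12 libraries for the transplant contrasts and their difference. P-values were Benjamini-Hochberg adjusted over all genes tested, and a call needed an adjusted p under 0.05. Per-library member values are CPM with 1 TMM scaling over the 12 libraries, and sums are CPM without scaling. Single sums were compared by two-sided exact permutation tests, whose smallest p is 0.1. Alternatives were DESeq2 1.42.0, voom with limma 3.58.1, upper-quartile scaling, scaling without mitochondrial genes, other filters, a fold minimum, a replicate block, a fit of 12 libraries, TPM in place of CPM, and each library left out. Leaving out retained-intron transcripts was added after the data were seen.

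The members and lists were chosen with earlier results of these data known. The genes named were the 13 mitochondrial genes; in each comparison the 5 largest called rises and falls of nuclear members with at least 10 normalized CPM; the most abundant nuclear member of each complex, Cycs and Sdha to Sdhd; the tissue-specific paralogs; and up to 4 genes per list by adjusted p. Other genes named were chosen after their values were seen. On simulated counts for the genotype comparison before transplantation (16344 genes), the test recovered 12% of 2-fold and 79% of 4-fold changes, with 2 false calls. Replicates of a group correlated at 0.869 to 0.955 and differed beyond sampling noise. Same-numbered libraries did not deviate together (correlations of −0.272 to 0.248), so numbers were not taken to pair them.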

Additional observations from a re-analysis of the deposited data

Results flagged for a closer look

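For 18 members, the change over the transplant differed between the genotypes by the edgeR interaction test at an adjusted p under 0.05. The values below are the log2 change in TCF-1 cKO minus that in WT. They were negative for Ndufs1 (−2.03), mt-Cytb (−1.84), mt-Nd2 (−1.76), Atp5f1 (−1.65), mt-Nd1 (−1.58), mt-Nd4 (−1.53), Uqcrb (−1.48), mt-Nd5 (−1.46), Uqcrc2 (−1.42), Sdha (−1.39), mt-Nd4l (−1.37), Ndufs4 (−1.21), Cox7b (−1.18), Uqcrfs1 (−1.18), Atp5j (−1.16) and Atp5a1 (−0.81). They were positive for Ndufb2 (3.04) and Cox4i2 (5.84). The value for Ndufb2 was 0.38 (adjusted p = 0.535 by edgeR) without retained-intron transcripts. The value for Cox4i2 rests on a group with 1 count in all, depends on the prior count and is no bound. With each of the 12 libraries left out in turn, mt-Cytb, Uqcrb, Uqcrc2, Sdha and Ndufb2 passed in 12 of 12 fits, and mt-Nd4l and Cox4i2 in 3 of 12. Each of the 18 calls, these 5 included, was lost under at least 1 other scaling, filter, test or transcript set. Upper-quartile scaling gave 9 members higher and 1 lower, so the negative values depend on the scaling.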

How the results depend on the processing

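Depth set few limits on the abundant members, but 3 libraries a group left most 2-fold changes uncalled on simulated counts, and low-count paralogs are held by a handful of counts. Counts of called members moved with scaling. Upper-quartile factors shifted the median of all genes by −0.36 before transplantation, 0.28 at day 7, 0.37 and −0.29 over the transplant in TCF-1 cKO and WT, and 0.66 in the interaction, and the members with them.

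TCF-1 cKO against WT before transplantation gave 18 calls, and 31 with DESeq2 (16 higher, 15 lower), 34 with upper-quartile factors (1 and 33), 34 with a mean of at least 10 CPM (2 and 32), 9 with a log2 fold change of at least 1, and 0 to 13 without single libraries. At day 7 it gave 2, and 15 with DESeq2, 10 with voom and limma, 5 with no filter, 1 with upper-quartile factors, 1 at 10 CPM, 1 at the fold minimum, 0 in the fit of 12 libraries, 0 without retained introns (32 members at an unadjusted p under 0.05 by edgeR), and 0 to 22 without single libraries. In the fit with the replicate number as a block it gave 37 calls (1 higher, 36 lower; 35.9% of members, beside 16.9% of all genes), and the block gave 23, 6, 19 and 13 calls before transplantation, over the transplant in each genotype (TCF-1 cKO, then WT) and in the interaction. The transplant in TCF-1 cKO gave 8, and 15 with DESeq2, 23 with upper-quartile factors, 22 at 10 CPM, 14 with no filter, and 5 to 15 without single libraries. The transplant in WT gave 26, and 14 at the fold minimum and 11 to 33 without single libraries. The interaction gave 18, and 10 with upper-quartile factors, 3 at 10 CPM, and 5 to 26 without single libraries. Ndufb2 at day 7 turned to −0.35 without retained introns.

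Log2 ratios of sums changed sign without single libraries for the mitochondrial share at day 7 (−0.57 to 0.14) and over the transplant in WT (−0.20 to 0.50); the mitochondrial genes of complex III at day 7 (−0.45 to 0.0839) and over the transplant in TCF-1 cKO (−0.52 to 0.0389), of complex IV at day 7 (−0.58 to 0.23) and over the transplant in WT (−0.40 to 0.34, and 0.084 with TPM), and of complex V before transplantation (−0.24 to 0.44) and over the transplant in WT (−0.24 to 0.38); and the nuclear genes of complex I at day 7 (−0.0805 to 0.0016) and of complex V before transplantation (−0.0061 to 0.0614) and at day 7 (−0.0827 to 0.0037). The causes were not tested.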
